A study of Mus musculus with 6 samples.

Results

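The D and E cyclins, the kinases they activate and the phosphatase Cdc25a drive cells through G1 into S phase. They are described here in MOE high and MOE low, late and early passages of murine oviductal epithelial (MOE) cells. The genes were chosen by name as the G1 cyclins and kinases Ccnd1, Ccnd2, Ccnd3, Ccne1, Ccne2, Cdk2, Cdk4 and Cdk6 together with Cdc25a. All 9 were found among the 22800 gene symbols of the expression tables, each under a single entry, and all 9 passed the filter on low values with 11621 genes in total. MOE high was sequenced at passages 90, 103 and 113 and MOE low at passages 8, 9 and 10, with 1 library of total RNA for each passage. Both came from 1 line, started from the pooled oviducts of 8-week-old female mice of the outbred CD1 strain, and the sources name no engineered allele. MOE high cells were obtained by serial passage of MOE low cells, and both were grown in serum with added epithelial growth factor, insulin, transferrin, selenite and β-estradiol. Because all 6 libraries are passages of a single line, the tests below rest on the spread among passages, not among mice.

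In G1, mitogens induce the D cyclins, which bind Cdk4 or Cdk6, and these complexes begin the phosphorylation of the retinoblastoma protein Rb. Phosphorylated Rb releases E2F transcription factors, whose targets include the E cyclins, and cyclin E with Cdk2 completes the phosphorylation of Rb and starts DNA replication. The CIP/KIP and INK4 proteins restrain these kinases, and Cdc25a removes inhibitory phosphates from Cdk2. The D cyclins are close relatives that differ mostly in the tissues and signals that induce them.

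Expression was measured in FPKM, fragments scaled to transcript length and to the mapped fragments of the library, which makes genes and libraries comparable only in part. No further scaling between libraries was used in the main fit, and some calls given below changed with such scaling. Summed FPKM ranged from 597486 to 770709 in MOE high and from 625095 to 684209 in MOE low. The number of reads behind a value is unknown. Set against passage 8 as a log2 difference, the value of 1 fragment read from the lowest values was -0.36 to -0.19 in MOE high and -0.17 to -0.14 in the other MOE low libraries. Each is the most frequent difference among such genes and is a rough reading. It was shared by only 12, 7 and 16 genes at passages 90, 103 and 113, and by 33 and 66 at passages 9 and 10. In all 6 tables the column heading gave a different passage or no passage, and for passages 90, 103 and 8 the heading named a passage of the other group. Each library was identified by its record. Grouped by record, libraries correlated over genes at 0.972 to 0.987 within MOE high, 0.981 to 0.985 within MOE low and 0.835 to 0.873 between the groups. With passages ordered as text (10, 103, 113, 8, 9, 90), each heading named the passage before its own, and passage 10 was headed Locus. Which passage of its group a table holds was taken from the record, and the values did not test it. Among markers of the epithelium, Pax8 was at 45.0 ± 3.94 FPKM in MOE high and 49.2 ± 5.04 FPKM in MOE low (SD, n = 3 passages), whereas the epithelial adhesion genes Epcam and Cdh1 were at no more than 0.0399 and 0.0821 FPKM in any library. Markers of other cell types differed between the groups. By the test given below, 24.3% of all genes tested were higher in MOE high and 32.1% were lower. Of 4 tested smooth muscle markers, 4 were lower, and the list summed to 9.33 to 17.9 FPKM in MOE high and 7686 to 11031 FPKM in MOE low. Of 6 tested stromal markers, 5 were lower, with sums of 22.4 to 32.7 FPKM in MOE high and 592 to 982 FPKM in MOE low. Of 3 tested markers of mesothelium and ovarian surface, 2 were higher and 1 was lower, with sums of 242 to 328 FPKM in MOE high and 69.1 to 80.5 FPKM in MOE low. Of 4 tested markers of ciliated epithelium, 2 were higher and 1 was lower, and nearly all of their summed FPKM was the broadly expressed tubulin gene Tubb4b, at 693 ± 170.4 FPKM in MOE high and 335 ± 32.3 FPKM in MOE low, with sums of 502 to 816 FPKM in MOE high and 312 to 375 FPKM in MOE low. Of 5 tested epithelial markers, 2 were higher and 0 were lower, with sums of 1509.7 to 2436 FPKM in MOE high and 882 to 912 FPKM in MOE low that were mostly Krt18, at 2029 ± 531 FPKM in MOE high and 798 ± 25.3 FPKM in MOE low. Pax8, Ovgp1 and Krt8 did not pass the test, and the median log2 fold change of these markers was 0.01. The endothelial list summed to at most 0.00998 FPKM in MOE high and to 1.88 to 3.68 FPKM in MOE low, with Cdh5 listed at 0 in every library. Leukocyte markers summed to 1.35 to 1.72 FPKM in MOE high and 1.44 to 2.24 FPKM in MOE low, with Cd3e listed at 0 in every library. The part of these cell types in the values below was not tested, and in a bulk sample fewer cells of a type and less RNA per cell cannot be told apart.

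The D cyclins differed in opposite directions. Ccnd1, Ccne2, Cdk4 and Cdc25a were higher in MOE high, Ccnd2 and Ccnd3 were lower, while Ccne1, Cdk2 and Cdk6 missed the threshold of the test. The test was that of limma on log2(FPKM + 1), a scale that understates the change of low genes, at an adjusted p of 0.05 over all 11621 genes. The 4 higher and 2 lower genes of 9 stand beside a background in which 24.3% of all genes tested were called higher and 32.1% were called lower, or 56.4% in either direction. The libraries of the groups did not overlap for 7 of 9 genes, 5 of them higher and 2 lower, against 64% of all genes tested, 28.5% higher and 35.5% lower. The median log2 fold change was 0.38 over the 9 genes and -0.05 over all genes tested.

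**Figure D1:**
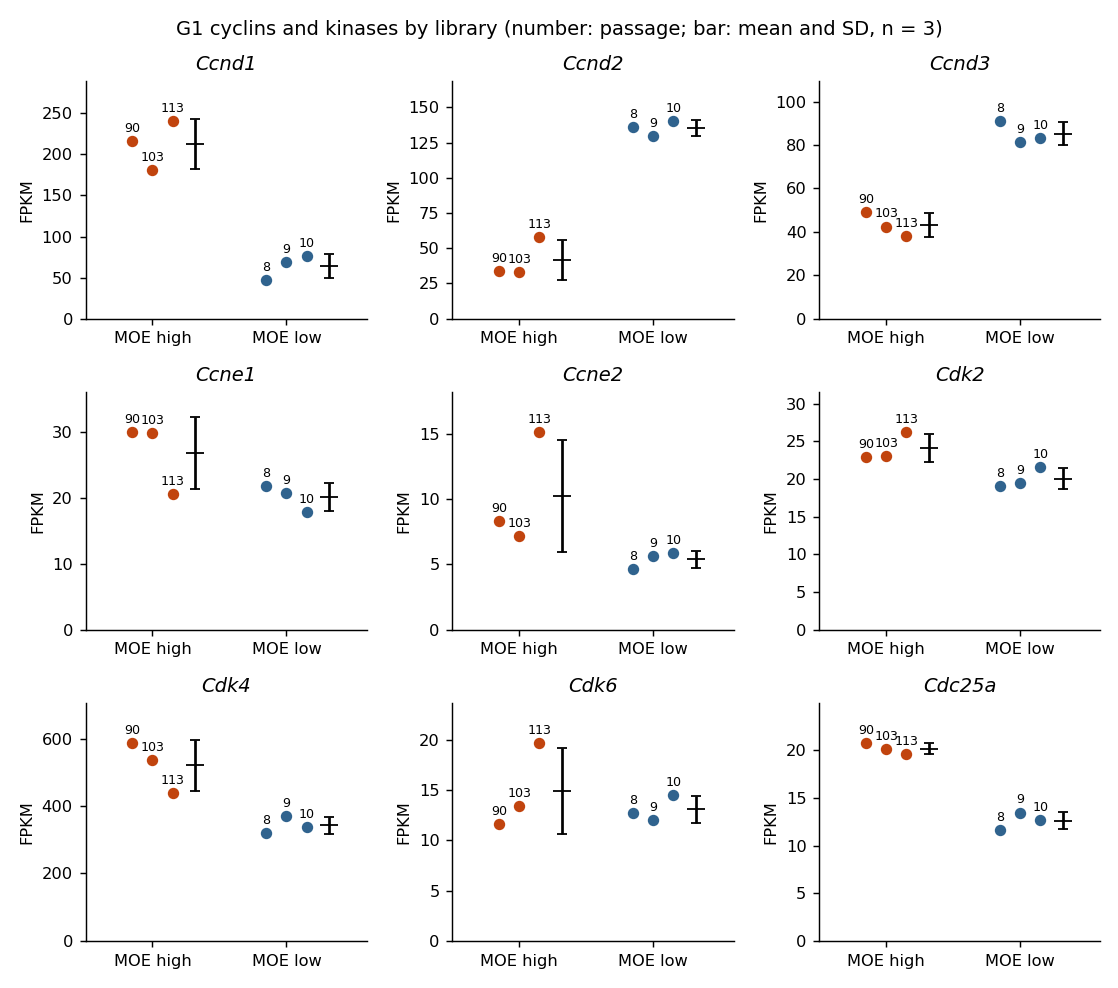
Expression of each gene in FPKM (y axis, from 0, scaled separately for each gene) in the 3 MOE high and 3 MOE low libraries. Each point is a library labelled with its passage, and the bar to its right is the mean and SD of the group. The groups are apart for every gene except Ccne1, for which passage 113 lies among the MOE low values, and Cdk6.

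Cyclin D1 and cyclin D2 changed places as the most abundant D cyclin transcript. Ccnd1 lies on the minus strand of chromosome 7 of mm10 from 144929931 to 144939925. It was at 217, 181 and 241 FPKM in MOE high at passages 90, 103 and 113, against 47.6, 69.1 and 75.9 FPKM in MOE low at passages 8, 9 and 10. The lowest MOE high library was above the highest MOE low library, and Ccnd1 stood in place 266 of 11621 when genes were ordered from the largest rise down. Its mean was 213 ± 30.5 FPKM in MOE high and 64.2 ± 14.8 FPKM in MOE low, and its log2 fold change was 1.73 ± 0.19 (standard error, limma adjusted p = 0.00016). Among all genes tested, 6.22% were called higher with a log2 fold change of at least 1.

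Ccnd2, on the minus strand of chromosome 6 from 127125162 to 127152193, was at 34.1, 33.1 and 57.7 FPKM in MOE high and 136, 129.6 and 141 FPKM in MOE low. All 3 MOE high libraries were well under the MOE low libraries, and the 3 MOE low libraries lay close together. The mean was 41.6 ± 13.9 FPKM in MOE high and 135 ± 5.52 FPKM in MOE low, and its log2 fold change was -1.72 ± 0.20 (standard error, limma adjusted p = 0.00023). A fall of this kind, called lower with a log2 fold change of -1 or less, was seen for 14% of genes tested.

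Ccnd3, on the plus strand of chromosome 17 from 47505051 to 47599691, was at 49.1, 42.5 and 38.1 FPKM in MOE high and 91.2, 81.2 and 83.0 FPKM in MOE low. Again no library of a group overlapped the other group. The mean of Ccnd3 was 43.2 ± 5.56 FPKM in MOE high and 85.1 ± 5.35 FPKM in MOE low, and its log2 fold change was -0.97 ± 0.12 (standard error, limma adjusted p = 0.00028). The calls for Ccnd1, Ccnd2 and Ccnd3 held in each of the 14 alternative fits, including those without any of the 6 libraries.

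The D cyclins together showed little difference between the groups. Summed over the D cyclins, the level was 299.8, 256 and 337 FPKM in MOE high and 275, 279.9 and 299.6 FPKM in MOE low. The MOE low sums all lay inside the range of the MOE high sums, with means of 298 ± 40.4 FPKM in MOE high and 285 ± 13.1 FPKM in MOE low (exact two-sided permutation p = 0.6). What differed was the make-up of the sum. Ccnd1 held 72.2%, 70.5% and 71.6% of it in MOE high, against 17.3%, 24.7% and 25.3% in MOE low. Ccnd2 held 11.4% to 17.1% in MOE high and 46.3% to 49.5% in MOE low, and Ccnd3 held 11.3% to 16.6% in MOE high and 27.7% to 33.2% in MOE low. These shares do not depend on how libraries are scaled to each other, while the sums do. Their groups did not overlap, and each gave an exact two-sided permutation p of 0.1, the smallest that 3 libraries against 3 can give. In FPKM, Ccnd1 was 4.18 to 6.35 times Ccnd2 in the MOE high libraries and 0.350 to 0.540 times Ccnd2 in the MOE low libraries.

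**Figure D2:**
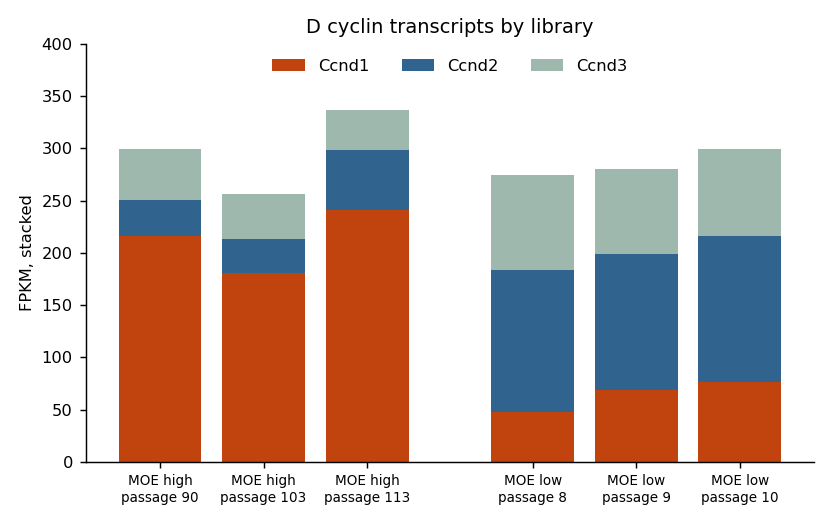
Stacked FPKM (y axis) of Ccnd1, Ccnd2 and Ccnd3 in the 3 MOE high libraries on the left and the 3 MOE low libraries on the right. The height of the bars is 256 to 337 FPKM in MOE high and 275 to 299.6 FPKM in MOE low, while Ccnd1 makes up at least 70.5% of each MOE high bar and at most 25.3% of each MOE low bar.

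Cdk4, a kinase partner of the D cyclins, was the most abundant of the 9 genes in every library and was higher in MOE high. It lies on the plus strand of chromosome 10 from 127063534 to 127067920. Cdk4 was at 587, 536 and 437 FPKM in MOE high and 321, 370 and 336 FPKM in MOE low. The lowest MOE high library, passage 113, was still above the highest MOE low library, passage 9. The mean was 520.2 ± 76.3 FPKM in MOE high and 342 ± 25.2 FPKM in MOE low, and its log2 fold change was 0.59 ± 0.14 (standard error, limma adjusted p = 0.0076), and the call held in each of the 14 alternative fits. By its mean Cdk4 was above 98.4% of all genes tested in MOE high and 97.5% in MOE low.

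The promoter of Cdk4 is shown because it holds an unusual number of copies of the E box CACGTG, the letters bound by Myc with Max and by related factors. It covers the 250 bases before the start that RefSeq gives for build GRCm38.p6, chr10:127063285-127063534 on the plus strand, with the E boxes in capitals.
Cdk4: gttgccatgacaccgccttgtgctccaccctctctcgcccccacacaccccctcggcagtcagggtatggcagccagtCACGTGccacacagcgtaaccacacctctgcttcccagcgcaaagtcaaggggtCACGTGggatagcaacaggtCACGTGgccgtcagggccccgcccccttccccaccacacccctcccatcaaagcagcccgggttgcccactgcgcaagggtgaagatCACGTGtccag
The window holds 4 E boxes, which end 6, 93, 113 and 167 bases before the start. The letters read the same on both strands. Among 32851 promoters of the same length, 6.02% hold at least 1 and 0.0213%, or 7 promoters, hold at least 4. RefSeq promoters were given for 6 of the 9 genes, and Cdk6 was the only other one with an E box, 1 copy that ends 215 bases before the start. The Cdk6 window, chr5:3343643-3343892, precedes a start inside the gene and not the gene start given below. Promoters of Ccnd1, Ccnd2 and Ccne2 were not analysed here. A match is a description of the letters and not a measured binding site.

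Cdk6, the other partner kinase of the D cyclins, lies on the plus strand of chromosome 5 from 3341485 to 3531008. It was at 11.6, 13.4 and 19.7 FPKM in MOE high and 12.7, 11.999 and 14.6 FPKM in MOE low. The groups overlapped, and the highest value was that of passage 113. The mean was 14.9 ± 4.24 FPKM in MOE high and 13.1 ± 1.32 FPKM in MOE low, and its log2 fold change was 0.15 with a 95% interval of -0.28 to 0.58 (limma adjusted p = 0.52). Without the library of passage 113 its sign turned, with a log2 fold change of -0.06. Of the summed FPKM of Cdk4 and Cdk6, Cdk4 held 95.7% to 98.1% in MOE high and 95.9% to 96.9% in MOE low, and these shares overlapped (exact two-sided permutation p = 0.4, difference 0.80 percentage points).

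Of the E cyclins, partners of Cdk2, Ccne2 was higher in MOE high and Ccne1 did not pass the test. Their summed FPKM was 38.4, 37.1 and 35.7 in MOE high, against 26.6, 26.5 and 23.7 in MOE low. The groups did not overlap, and the MOE high sums differed little from each other (37.1 ± 1.35 FPKM in MOE high and 25.6 ± 1.61 FPKM in MOE low, exact two-sided permutation p = 0.1, the smallest possible). Unlike shares, these sums depend on how libraries are scaled to each other, and no further scaling was used. Ccne1, on the minus strand of chromosome 7 from 38097984 to 38107534, was at 30.1, 29.9 and 20.6 FPKM in MOE high and 21.9, 20.8 and 17.9 FPKM in MOE low. Without further scaling, passages 90 and 103 were above every MOE low library, and passage 113 lay among them. The mean was 26.9 ± 5.46 FPKM in MOE high and 20.2 ± 2.08 FPKM in MOE low, and its log2 fold change was 0.38 ± 0.16 (standard error, limma adjusted p = 0.083), which did not pass the test. Without the library of passage 113 the log2 fold change was 0.55 and passed (adjusted p = 0.0032 from limma, where adjusted p over the alternatives ranged from 0.0032 to 0.24).

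Ccne2, on the plus strand of chromosome 4 from 11191351 to 11204779, was the least abundant of the 9 genes in both groups. It was at 8.33, 7.18 and 15.1 FPKM in MOE high and 4.68, 5.62 and 5.85 FPKM in MOE low. All 3 MOE high libraries were above the MOE low libraries, and passage 113 was far above the other MOE high libraries. The mean of Ccne2 was 10.2 ± 4.31 FPKM in MOE high and 5.38 ± 0.621 FPKM in MOE low, and its log2 fold change was 0.75 ± 0.24 (standard error, limma adjusted p = 0.030). The call was lost without the library of passage 8, 9 or 10 (log2 fold changes of 0.67, 0.78 and 0.81, adjusted p = 0.10, 0.069 and 0.058 from limma, within 0.0072 to 0.11 over all alternatives). It was kept without that of passage 113 (log2 fold change 0.46). Ccne1 held 78.3%, 80.6% and 57.6% of the summed E cyclin FPKM in MOE high and 82.4%, 78.8% and 75.3% in MOE low. These shares overlapped (exact two-sided permutation p = 0.6), and their difference of -6.65 percentage points became 0.655 without passage 113.

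Cdk2, the kinase partner of the E cyclins, lies on the minus strand of chromosome 10 from 128697939 to 128705031. It was at 23.0, 23.0 and 26.3 FPKM in MOE high and 19.1, 19.4 and 21.6 FPKM in MOE low. The groups did not overlap, but the gap between them was small. The mean of Cdk2 was 24.1 ± 1.89 FPKM in MOE high and 20.1 ± 1.36 FPKM in MOE low, and its log2 fold change was 0.25 with a 95% interval of 0.01 to 0.49 (limma adjusted p = 0.073), which did not pass the test. It passed when libraries were scaled by the median ratio over genes (log2 fold change 0.30, adjusted p = 0.034 from limma, where adjusted p over the alternatives ranged from 0.034 to 0.39).

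In FPKM without further scaling, Cdc25a was the steadiest of the genes that rose. It lies on the plus strand of chromosome 9 from 109875579 to 109893895. Cdc25a was at 20.8, 20.2 and 19.6 FPKM in MOE high and 11.7, 13.5 and 12.7 FPKM in MOE low. The MOE high libraries lay within a narrow band above all MOE low libraries, with a coefficient of variation of 2.97% in MOE high and 7.18% in MOE low. The mean was 20.2 ± 0.600 FPKM in MOE high and 12.6 ± 0.905 FPKM in MOE low, and its log2 fold change was 0.64 ± 0.10 (standard error, limma adjusted p = 0.00096), and the call held in each of the 14 alternative fits.

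The promoter of Cdc25a is shown because, of the 6 genes with a RefSeq promoter, only it held the E2F site TTTGGCGC. The sequence is the 250 bases before the start in GRCm38.p6, chr9:109875329-109875578 on the plus strand, with the E2F site and CCAAT boxes in capitals, where a CCAAT box on the other strand reads ATTGG.
Cdc25a: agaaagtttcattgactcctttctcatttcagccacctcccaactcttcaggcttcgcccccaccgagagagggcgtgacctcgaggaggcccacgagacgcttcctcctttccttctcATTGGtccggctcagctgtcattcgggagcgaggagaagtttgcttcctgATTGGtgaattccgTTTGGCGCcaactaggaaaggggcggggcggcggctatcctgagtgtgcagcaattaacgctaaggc
The E2F site ends 60 bases before the start, and the CCAAT boxes, both on the minus strand, end 77 and 127 bases before it. Read on both strands, TTTGGCGC was found in 0.417% of the 32851 promoters and at least 2 copies of CCAAT in 10.1%. The looser form TTTNNCGC, which contains TTTGGCGC and where N is any base, was found in 4.28% of promoters and, among these genes, in Cdk2 and Cdk6 as well as Cdc25a. It was not found in the windows of Ccne1, Ccnd3 or Cdk4, and the windows do not reach farther sites. The Cdk6 window is that of a start inside the gene, given above.

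Among the MOE high libraries, passage 113 differed from passages 90 and 103 in several of these genes and in both directions. Ccne2 in passage 113 was 1.95 times the mean of passages 90 and 103, Ccnd2 was 1.72 times and Cdk6 was 1.57 times that mean. Ccne1 was 0.685 times and Cdk4 was 0.778 times that mean. These ratios are of FPKM without further scaling. The summed FPKM of passage 113, at 597486, was the lowest of all libraries, against 770709 and 720500 at passages 90 and 103. The part of these totals in the ratios was not tested. On the log2(FPKM + 1) scale the difference was 0.89 for Ccne2, larger than for 98.1% of all genes tested, and 0.76 for Ccnd2, larger than for 95.8%. The size of the difference was larger than for 90.5% of genes for Cdk6, 84.7% for Ccne1 and 67.4% for Cdk4. The median size over all genes tested was 0.24 for passage 113 against the mean of the other passages and 0.13 between passages 103 and 90, so the library of passage 113 stood somewhat apart over all genes. Its Pearson correlations with the other MOE high libraries were 0.972 and 0.977 over all genes tested, where genes are not independent replicates, against 0.987 between passages 90 and 103.

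**Figure D3:**
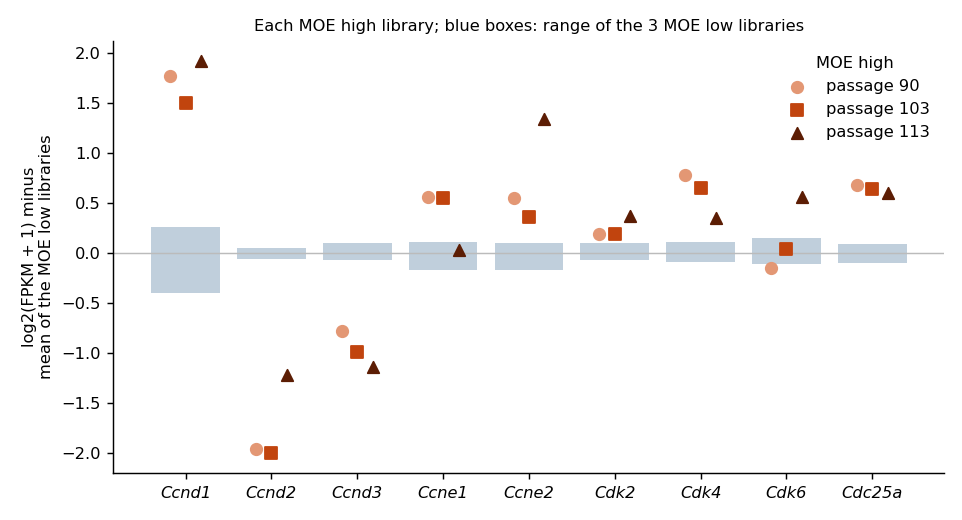
For each gene (x axis), log2(FPKM + 1) of each MOE high library minus the mean of the MOE low libraries (y axis). Circles are passage 90, squares passage 103 and triangles passage 113, and blue boxes span the 3 MOE low libraries. Passage 113 is near the MOE low mean for Ccne1 and well above passages 90 and 103 for Ccnd2, Ccne2 and Cdk6, while all 3 MOE high libraries are on the same side of the box for Ccnd1, Ccnd2, Ccnd3, Ccne2, Cdk2, Cdk4 and Cdc25a.

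Ordered by mean level in MOE high, the genes ran Cdk4, Ccnd1, Ccnd3, Ccnd2, Ccne1, Cdk2, Cdc25a, Cdk6 and Ccne2. In MOE low the order was Cdk4, Ccnd2, Ccnd3, Ccnd1, Ccne1, Cdk2, Cdk6, Cdc25a and Ccne2. Neighbours in this order overlapped between Ccnd3 and Ccnd2, Ccne1 and Cdk2, Cdc25a and Cdk6, and Cdk6 and Ccne2 in MOE high. In MOE low they overlapped between Ccne1 and Cdk2 and between Cdk6 and Cdc25a only. The coefficient of variation over passages was largest in MOE high for Ccne2, at 42.1%, and in MOE low for Ccnd1, at 23.0%.

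Of the G1 inhibitors, the CIP/KIP genes Cdkn1a and Cdkn1b fell and the INK4 gene Cdkn2a rose. Of 6 tested genes of 7 listed, Cdkn2a was higher, Cdkn1a and Cdkn1b were lower, while 3 missed the threshold, with a median log2 fold change of 0.17. That is 16.7% higher and 33.3% lower, against 24.3% and 32.1% of all genes tested. Cdkn1a, a CIP/KIP inhibitor of Cdk2 and a target of p53, was at 89.2, 69.7 and 58.5 FPKM in MOE high and 149.9, 145 and 137 FPKM in MOE low, and its log2 fold change was -1.001 (limma adjusted p = 0.00094). Cdkn1b, its relative, was at 17.6, 21.9 and 24.6 FPKM in MOE high and 33.4, 31.3 and 35.2 FPKM in MOE low, and its log2 fold change was -0.63 (limma adjusted p = 0.0049). No MOE high library reached the MOE low range for either gene. Cdkn2a, whose locus encodes an INK4 inhibitor of Cdk4 and Cdk6 and, in another reading frame, the Arf protein, was at 46.3, 66.5 and 45.2 FPKM in MOE high and 32.1, 30.1 and 32.4 FPKM in MOE low. Its log2 fold change was 0.70 (limma adjusted p = 0.0058), and a value for the gene does not separate the transcripts of these proteins. The other INK4 genes Cdkn2b, Cdkn2c and Cdkn2d overlapped between the groups, with log2 fold changes of 0.19, 0.15 and 0.26 (limma adjusted p = 0.48, 0.27 and 0.094), and that of Cdkn2b turned to -0.03 without the library of passage 103. Cdkn1c, under the filter on low values, was listed at 0 in every MOE high library and was at 0.0503 to 0.272 FPKM in MOE low.

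Of the 13 pocket protein, E2F and DP genes, 7 were higher and 1 lower, while 5 missed the threshold, with a median log2 fold change of 0.37. That is 53.8% higher and 7.69% lower, against 24.3% and 32.1% of all genes tested. Rb1, the main substrate of the G1 kinases, was at 7.13, 7.18 and 8.95 FPKM in MOE high and 8.51, 8.43 and 10.5 FPKM in MOE low, and did not pass the test (log2 fold change -0.21, adjusted p = 0.21 from limma). Its relative Rbl1, which encodes p107, was at 15.3, 20.02 and 24.4 FPKM in MOE high and 9.48, 9.77 and 9.55 FPKM in MOE low (log2 fold change 0.96, adjusted p = 0.0015 from limma), and Rbl2 had a log2 fold change of -0.19 (limma adjusted p = 0.29). The atypical repressor E2f8 was at 27.9, 33.3 and 27.5 FPKM in MOE high and 6.94, 7.12 and 7.47 FPKM in MOE low, and its log2 fold change was 1.90 (limma adjusted p = 5.5e-06). The activator E2f2 was at 3.84, 5.73 and 3.64 FPKM in MOE high and 0.475, 0.690 and 0.820 FPKM in MOE low, and its log2 fold change was 1.69 (limma adjusted p = 9.3e-05). E2f4, E2f7 and the partner gene Tfdp1 were also higher, with log2 fold changes of 1.36, 0.80 and 0.67. The activator E2f1 had a log2 fold change of 0.37 (limma adjusted p = 0.044), and its call was lost without the library of passage 8, 9, 10, 90 or 103 (0.30 to 0.42). E2f6, a repressor that acts without pocket proteins, was lower, at 12.1 ± 0.776 FPKM in MOE high and 19.0 ± 2.03 FPKM in MOE low. E2f3, E2f5 and Tfdp2 had log2 fold changes of 0.27, -0.26 and -0.08 and did not pass the test. E2f3 passed as higher without the library of passage 90 (0.37) and E2f5 passed as lower without that of passage 113 (-0.39). The sign of Tfdp2 turned without passage 90 (0.12).

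Of 15 listed regulators of cyclins and their kinases, some of which act after G1, 7 were higher and 2 lower, while 6 missed the threshold. That is 46.7% higher and 13.3% lower, against 24.3% and 32.1% of all genes tested. Their median log2 fold change was 0.09. Cdc25b, a phosphatase of the same family as Cdc25a, was at 19.9 ± 1.24 FPKM in MOE high and 6.57 ± 1.27 FPKM in MOE low, and its log2 fold change was 1.48 (limma adjusted p = 7.9e-05). Skp2, the ubiquitin ligase subunit that targets the product of Cdkn1b, was at 23.7 ± 5.17 FPKM in MOE high and 10.8 ± 1.54 FPKM in MOE low. Pkmyt1, an inhibitory kinase of Cdk1, was at 12.9 ± 2.21 FPKM in MOE high and 5.97 ± 0.144 FPKM in MOE low. Fbxw7, which targets cyclin E for degradation, was lower, at 4.17 ± 0.0606 FPKM in MOE high and 5.88 ± 0.5001 FPKM in MOE low, and its call was lost without the library of passage 8 (log2 fold change -0.36). Gsk3b, a kinase that marks cyclin D1 for degradation, was at 8.97 ± 3.05 FPKM in MOE high and 14.8 ± 1.18 FPKM in MOE low, and its call was lost without the library of passage 8, 10, 90 or 103 (log2 fold changes of -0.69 to -0.56). The subunits of the Cdk-activating kinase Cdk7, Ccnh and Mnat1 did not pass the test.

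Cyclins and a kinase that act after G1 rose. Of 5 tested genes of 6 listed, Ccna2, Ccnb1, Ccnb2, Ccnf and Cdk1 were higher in MOE high and 0 were lower, with a median log2 fold change of 0.54. With libraries scaled to equal summed FPKM, 3 were higher. Ccna2 and Ccnb2 then lost their calls (log2 fold changes of 0.48 and 0.24, limma adjusted p = 0.0739 and 0.0745). Over all genes tested, 24.3% were higher and 32.1% lower. Cyclin A2 (Ccna2) was at 92.1, 86.3 and 114 FPKM in MOE high and 59.6, 70.4 and 68.9 FPKM in MOE low. Ccnb1 had a log2 fold change of 0.71, Ccnf of 0.99 and Cdk1 of 0.48. Ccnb2 had a log2 fold change of 0.30 (limma adjusted p = 0.031), and its call was lost without the library of passage 8, 9, 10, 90 or 103 (0.26 to 0.32). The germ-line cyclin gene Ccna1 was listed at 0 in every library. Of 23 S phase genes under E2F control, 21 (91.3%) were higher and 0 lower, while 2 missed the threshold, with a median log2 fold change of 0.77. The licensing factor gene Cdt1 was at 113, 127 and 82.1 FPKM in MOE high and 26.1, 28.7 and 23.8 FPKM in MOE low. Mcm5, a subunit of the replicative helicase, was at 106 ± 4.89 FPKM in MOE high and 34.0 ± 2.20 FPKM in MOE low, and Pcna, the sliding clamp, was at 492 ± 22.1 FPKM in MOE high and 194 ± 15.0 FPKM in MOE low. Among the D cyclins, Ccnd1 rose, while Ccnd2 and Ccnd3 fell.

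**Figure D4:**
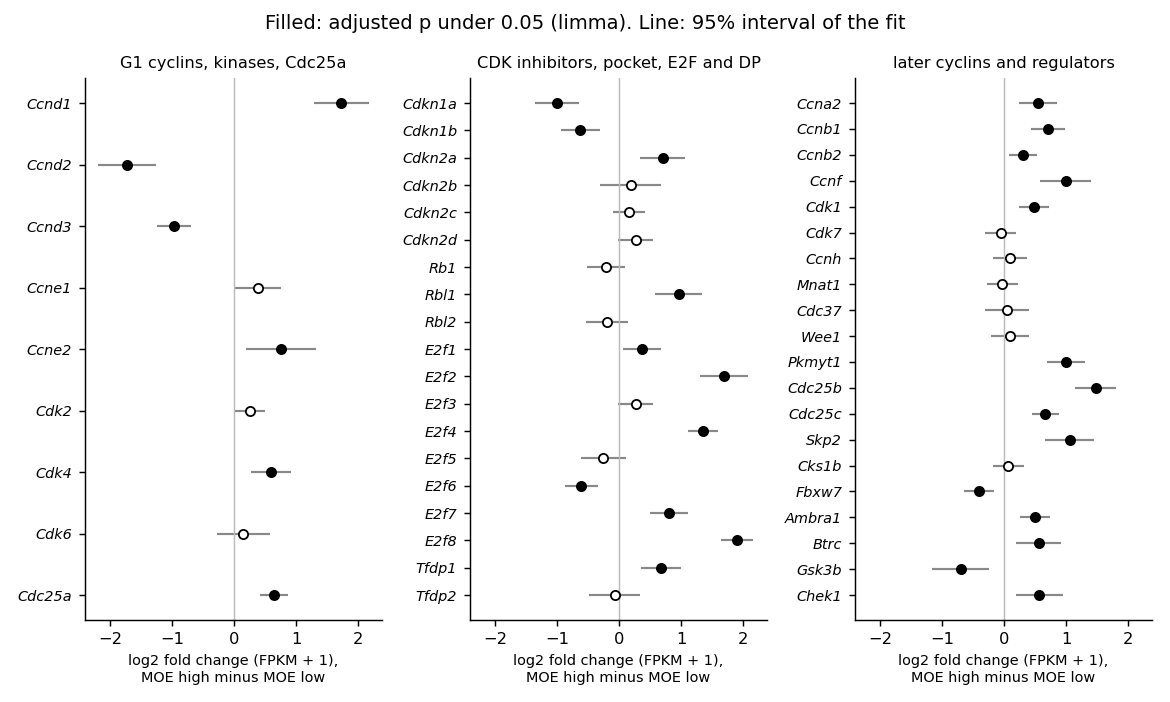
Log2 fold change of MOE high minus MOE low on the log2(FPKM + 1) scale (x axis). The G1 cyclins and kinases with Cdc25a are on the left, and the CDK inhibitors with pocket proteins, E2F and DP factors in the middle. Later cyclins with regulators of cyclins and their kinases are on the right. Points are estimates from 3 MOE high and 3 MOE low libraries, lines their 95% intervals, and filled points passed an adjusted p of 0.05 (limma). Ccnd1 (1.73) and Ccnd2 (-1.72) lie at opposite ends of the left panel.

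Around each of Ccnd1, Ccnd2 and Cdk4, some neighbouring genes were higher and others lower in MOE high. Around Cdk4 these directions were split by side. A cause shared by a region was not tested. Up to 5 tested genes on each side were taken in the order of the annotation. Ccnd1 had 6 such neighbours with only 1 of them after it, of which 2 were higher and 2 lower, while 2 missed the threshold. Their median log2 fold change was 0.03, and the tested genes of chromosome 7 had a median of -0.09, with 19.95% of them higher and 33.3% lower. Ano1, a chloride channel gene 178 kb from Ccnd1, was at 41.6 FPKM in MOE high and 0.511 FPKM in MOE low on average (log2 fold change 4.83). Between Ano1 and Ccnd1, Oraov1 did not pass the test (log2 fold change 0.09), and on the far side of Ano1 were Fadd (0.29), Ppfia1 (-0.03) and Cttn (-0.59). Tpcn2, on the other side of Ccnd1, had a log2 fold change of -0.32. The calls for Fadd and Tpcn2 were lost without any of passages 8, 9, 10, 90 and 103 (0.27 to 0.33 for Fadd and -0.34 to -0.28 for Tpcn2). That of Tpcn2 was also lost with each scaling, without the filter on low values and with the replicate block (limma adjusted p = 0.0518 to 0.0919). That of Fadd was also lost at equal summed FPKM and with the replicate block (limma adjusted p = 0.213 and 0.0751).

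Around Ccnd2, 4 of 10 neighbours were higher and 2 were lower, with a median log2 fold change of 0.11, where 19.6% of the tested genes of chromosome 6 were higher and 39.5% were lower. The nearest tested gene on each side was 9630033F20Rik (0.43) and Parp11 (-0.19). The window of these 10 neighbours spans 2903 kb, against 329 kb around Cdk4. Tspan9, 809 kb from Ccnd2, had a log2 fold change of -1.45, and Tead4, 1075 kb from Ccnd2, had one of 1.45. The others were Cd9 (0.35), Rad51ap1 (0.63), Tulp3 (-0.47), Ndufa9 (0.02), D6Wsu163e (-0.09) and 5930416I19Rik (0.20), which passed without the library of passage 113 (0.24). The calls for 9630033F20Rik and Cd9 were lost without the library of passage 8, 9 or 90, and for 9630033F20Rik also without that of passage 10 (log2 fold changes of 0.37 to 0.46) and for Cd9 without that of passage 103 (0.30 to 0.37).

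Of the 5 tested genes before Cdk4, 4 were higher and 1 did not pass the test, and all 5 after it were lower, where 19.7% of the 559 tested genes of chromosome 10 were higher and 36.7% were lower. Before Cdk4 were Xrcc6bp1 (log2 fold change 0.88), Ctdsp2 (-0.18), Tsfm (0.99), Mettl1 (0.38) and March9 (1.13). After it were Tspan31 (-0.66), Os9 (-0.86), B4galnt1 (-0.78), Arhgef25 (-2.72) and Dtx3 (-0.54). The call for Mettl1 was lost without the library of passage 9, 10, 90 or 103 (0.31 to 0.37). Tspan31 lies on the other strand and shares 641 bases with the end of Cdk4 in the GENCODE annotation. Oraov1 (annotated as LTO1) shares 1771 bases with Ccnd1 in the same way. The longest overlap with a protein-coding gene is that of Ccne2, which shares 5622 bases with Ints8. Ints8 was at 19.5, 17.5 and 24.8 FPKM in MOE high and 16.0, 17.9 and 17.4 FPKM in MOE low, above Ccne2 in every library. Like Ccne2, it was highest at passage 113. Of the 9 genes, 7 overlap a gene on the other strand and for 5 it is protein-coding. The libraries were strand-specific, but whether the counting used the strand is not given in the sources used here, so part of the value of such a gene may come from the other strand. Of the 10 neighbours each of the other called genes, 1 was higher and 0 lower around Ccnd3, 2 were higher and 3 lower around Ccne2, and 4 were higher and 1 lower around Cdc25a. Over the tested genes of their chromosomes, 24.0% were higher and 29.0% lower for Ccnd3, 21.4% and 32.8% for Ccne2, and 17.6% and 34.3% for Cdc25a. The median log2 fold changes of the neighbours were 0.04, -0.15 and 0.29 in that order, against -0.05, -0.05 and -0.13 over the chromosomes.

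**Figure D5:**
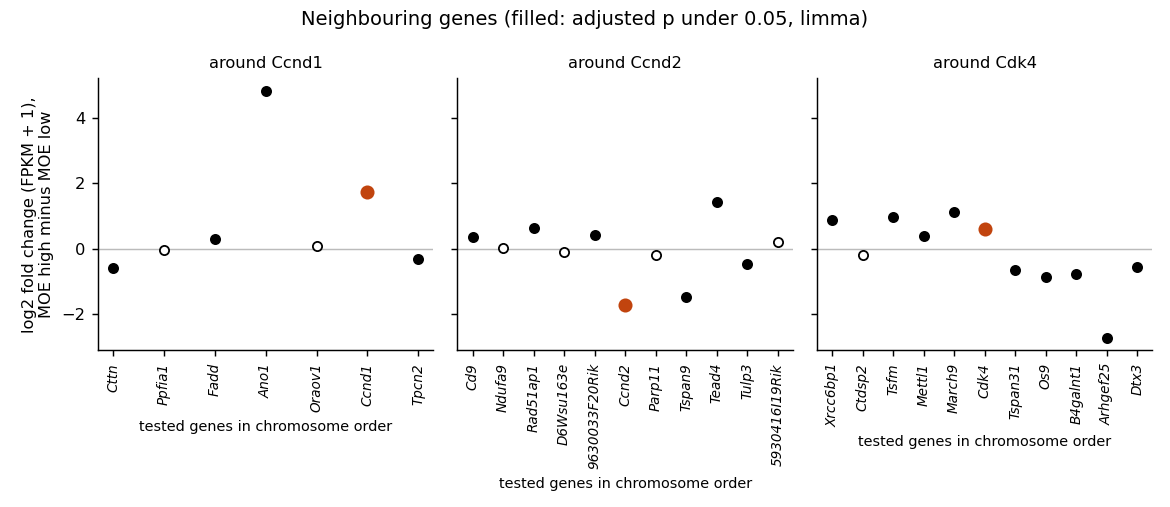
Log2 fold change of MOE high minus MOE low on the log2(FPKM + 1) scale (y axis) for Ccnd1, Ccnd2 and Cdk4, each in red, and the nearest tested genes on each side in chromosome order (x axis). Filled points passed an adjusted p of 0.05 (limma). Around Cdk4, 4 of 5 genes before it are higher and 5 of 5 after it are lower.

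The genes whose pattern over the 6 libraries was most like that of each called gene were found by the Euclidean distance of centred log2(FPKM + 1) values, as a description only, since libraries of a group share their passage history. For Ccnd1 they were Gxylt2 (distance 0.29), the integrin gene Itga6 (0.39) and Zfp961 (0.40). For Ccnd2 they were Marcks (0.13), Fam198b (0.14) and Dsel (0.19), and for Ccnd3 Cap1 (0.09), Kctd17 (0.12) and Vkorc1 (0.13). For Cdk4 they were Arfrp1 (0.08), the ribosomal protein gene Rps2 (0.08) and the splicing factor gene Sf3a3 (0.09). For Cdc25a they were Rfc4, a subunit of the clamp loader of DNA replication (0.06), 4931428F04Rik (0.08) and Rhot2 (0.08). For Ccne2 they were the tight junction gene Tjp1 (0.22), Pdzd8 (0.25) and Plekha2 (0.26). Ccnd1 and Ccne2 had the largest nearest distances among the called genes.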

How the data were processed

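Total RNA of 6 libraries, depleted of ribosomal RNA, was sequenced by the authors. For each library the authors deposited a table of FPKM over the UCSC gene annotation, and the submitters' processing notes name build mm10, TopHat2 2.0.8b for alignment and Cuffdiff 2.1.1. Cufflinks is named in the methods. Each table held 23141 entries, and 236 symbols had several entries, of which that with the largest mean over libraries was used. No read counts were used. MOE high was compared with MOE low by limma 3.58.1 (R 4.3.3, mean-variance trend). Values were log2(FPKM + 1), genes had to average 0.5 FPKM or more, with Benjamini and Hochberg adjustment over all of them at 0.05. Shares were compared by exact permutation tests (scipy 1.17.1, numpy 2.4.6, pandas 2.3.3, Python 3.11.15). The limma fit was tested on simulated data with independent noise and far fewer changed genes than were called here. That simulation does not cover library scaling or shared passage history. Positions came from GENCODE M21 (GRCm38) and RefSeq, neighbours and promoters from RefSeq GRCm38.p6. The 9 genes and the gene lists were chosen with earlier results of these data known. The named genes were these 9, all inhibitors, pocket, E2F and later cyclin genes, the 3 largest calls per direction without overlap of the groups and with a mean of at least 5 FPKM in the other lists, the 5 nearest tested genes on each side and the 3 genes most like each called gene. Alternatives were 3 scalings, the omission of each library in turn, pseudocounts of 0.1 and 0.01, a minimum mean of 5 FPKM or none, an adjusted p of 0.01 and a replicate block. Neighbours of Ccnd3, Ccne2 and Cdc25a are given as counts, a choice made after their values were seen. The paper's protein and tumor data were not analysed here.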

Additional observations from a re-analysis of the deposited data

How the results depend on the processing

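The directions of the 6 called G1 genes held in all alternatives, and of 126 values of the 9 genes 117 kept the side of the threshold, 5 lost it, 3 gained it and 1 turned. Of the 9 genes, 3 to 5 were called higher and 2 lower in every alternative. Ccne2 was also lost at equal summed FPKM (0.70) and without the filter (0.75). The library numbers are not a pairing, since deviations of same-numbered libraries correlated at -0.02, -0.15 and 0.12, and with the replicate block Ccne1 passed (0.38, adjusted p = 0.024 from limma, range over its alternatives 0.0032 to 0.24) and 4 of the other genes were still higher. Genes called lower over the whole table numbered 2350 with a mean of at least 5 FPKM, against 3734, where fewer genes were tested. At equal summed FPKM, 4 regulators of cyclins and their kinases were higher and 1 lower. Of the later cyclins and Cdk1, 3 genes were higher (Ccnb1, Ccnf and Cdk1). At an adjusted p of 0.01, 0 of these regulators were lower. Leaving out a library gave 0 to 2 lower regulators and 1 to 2 lower pocket and E2F genes, and moved the difference in the Ccne1 share between -10.9 and 0.655 percentage points. Leaving out a library turned values near 0, with a range of -0.0568 to 0.2998 for Cdk6, -0.0323 to 0.3552 for Cdkn2b, -0.2164 to 0.1232 for Tfdp2, -0.0945 to 0.0178 for Ppfia1, -0.0449 to 0.1852 for Oraov1, -0.0631 to 0.1085 for Ndufa9 and -0.2657 to 0.0012 for Ctdsp2. Ppfia1 also turned with the median ratio (0.0243) and Ndufa9 at equal summed FPKM (-0.041). The cause of these changes was not tested. FPKM keep no absolute depth, so no counting error can be given.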
